A study of Homo sapiens with 8 samples.

Results

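The genes described here encode core RNA splicing factors: 40 genes, of 20033 protein-coding genes annotated. They comprise 12 genes of serine/arginine-rich (SR) proteins (SRSF1 to SRSF12), the 2 transformer-2 genes TRA2A and TRA2B, 19 genes of heterogeneous nuclear ribonucleoproteins (hnRNPs), 3 genes of U1-specific proteins (SNRNP70, SNRPA, SNRPC) and 4 genes of Sm proteins (SNRPB, SNRPD1, SNRPD2, SNRPD3). Members were taken by name, and every peak that overlapped the annotated span of a gene, or the 4000 bp after its 3′ end, was assigned to it. The study compared Kelly cells, a MYCN-amplified human neuroblastoma line, with Kelly E9R cells, a derivative that carries a point mutation in CDK12 at the cysteine bound by THZ531. Each line received 400 nM THZ531, which binds CDK12 and CDK13 covalently and blocks their kinase activity, or the solvent DMSO for 6 h. There were 2 libraries in each of the 4 groups, and poly(A) 3′-sequencing was used to locate transcript ends. The methods of the study give another THZ531 concentration for Kelly cells than the labels do, and the labels were followed here.

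The authors pooled the reads of all 8 libraries and called 1 list of 153624 peaks from them, so the list carries no value per library. THZ531 and DMSO therefore could not be compared, no value has a replicate, and the depth per library is unknown. What can be described is where polyadenylated 3′ ends of these genes were found in the pooled cells. A pair of measures is used for each peak. The pileup is the number of reads that the peak caller counted over the summit, each extended to 100 bp. Whether duplicate reads were counted is not given in the sources used here, so the pileup may fall short of all reads there. The −log10 q measures how far that pileup lies above the local background. Neither is a transcript level, since strong genes raised their own local background and the highest pileup in the list was 200. That is also the most that reads extended to 100 bp can give if at most 1 read is counted per start position and strand. A rank of ends by pileup or −log10 q may therefore differ from a rank by all reads. The median background was 1.69 reads for the peaks of the splicing factor genes and 0.500 over the list. All 7 markers of adrenergic neuroblastoma examined (such as HAND2 and DBH) had a peak at an annotated end or in the 3′ UTR. Among 8 markers of other cell types COL1A1, COL3A1 and EPCAM had one, and PTPRC, CD3E, KRT5, ALB and PECAM1 had none.

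SR proteins and TRA2 proteins bind exonic enhancers, often purine-rich, and help the spliceosome recognise exons. hnRNPs coat nascent RNA and frequently repress nearby splice sites. The U1 particle pairs with 5′ splice sites and also shields nascent transcripts from cleavage at intronic polyadenylation signals. Sm proteins form the ring shared by the spliceosomal snRNPs. Many SR, TRA2 and hnRNP genes limit their own output through poison exons, which are cassette exons whose inclusion brings a premature stop codon and decay of the mRNA.

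All 40 splicing factor genes had at least 1 peak at an annotated transcript end or in the 3′ UTR of the main transcript (the MANE Select or canonical transcript), compared with 67.3% of all protein-coding genes. These 13492 genes serve as the comparison set below. In all, 304 peaks lay in the splicing factor genes, and 298 remained after removal of 6 peaks that were followed by a long genomic A stretch and had no polyadenylation signal (PAS) motif. Of the 298 peaks, 36 lay at the main transcript end, 42 at another annotated end, 32 elsewhere in the main 3′ UTR, 68 in other exons, 104 in introns and 16 after the gene. The members did not share 1 layout. HNRNPC had 22 peaks and SNRPD2 had 2.

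**Figure D1:**
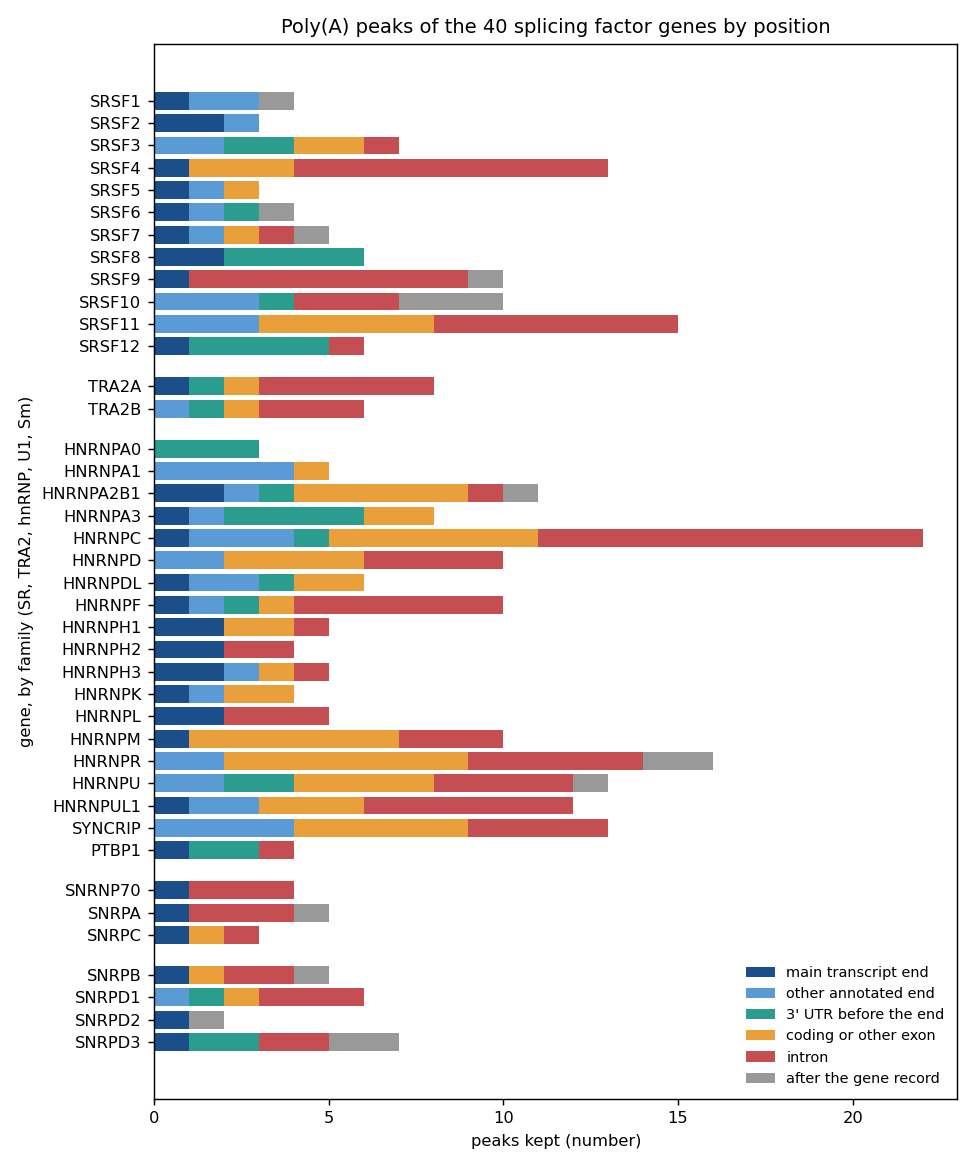
Number of peaks kept for each of the 40 genes (x axis), stacked by position relative to the gene and grouped by family (y axis). HNRNPC has the longest bar with 22 peaks, the 3 U1 genes show a single end peak each, and 11 genes lack the dark blue main end segment.

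Intronic peaks made up 34.9% of the peaks of the splicing factor genes (95% Wilson interval 29.7 to 40.5) and 66.5% of those of the comparison set (66.3 to 66.8). The families were uneven, with 34.9% in SR, 57.1% in TRA2, 31.3% in hnRNP, 58.3% in U1 and 35% in Sm genes, and the U1 and TRA2 values rest on 12 and 14 peaks. When only peaks whose −log10 q reached 10 were counted, the intronic share was 19.6% for the splicing factor genes and 43.3% for the comparison set. Among peaks with a polyadenylation signal (PAS) hexamer before their 3′ end and no A-rich genomic sequence after it, the share was 14.0% and 40.2%. Peaks in other exons, meaning exons of any basic transcript outside the main 3′ UTR and the end windows, made up 22.8% (18.4 to 27.9), against 8.69% (8.54 to 8.84). Other annotated ends made up 14.1% (10.6 to 18.5), against 5.30% (5.18 to 5.42). Peaks at the main end were similar in share, with 12.1% (8.86 to 16.3) and 9.43% (9.27 to 9.58). These intervals cover counting error only and treat peaks as independent, although peaks of 1 gene share their transcript. The genes also differ in length: the median gene record spanned 18.6 kb for the splicing factor genes and 33.5 kb for the comparison set, with medians of 7 and 8 introns. A group of 62 other splicing genes (U2, tri-snRNP, other Sm, U1-auxiliary, SR-related, SR-kinase and other hnRNP genes) lay between them for introns, with 51.1% (46.9 to 55.2), and had 20.3% (17.2 to 23.9) in exons. Annotated transcripts per gene had a median of 12 in the splicing factor genes, 12 in these other splicing genes and 8 in the comparison set. With more transcripts, more positions count as an exon or other end and fewer as intronic. The part of this in the shares was not tested.

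**Figure D2:**
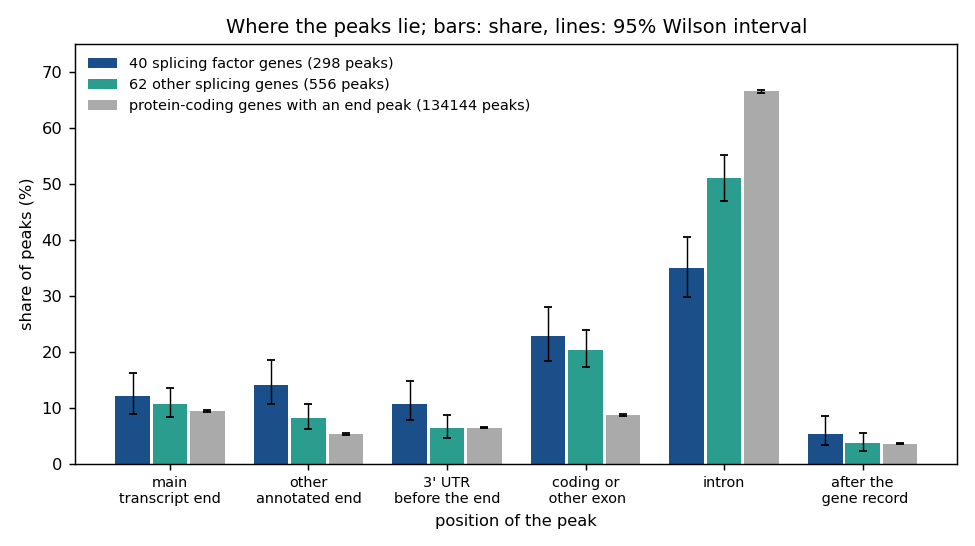
Share of peaks (y axis, %) at each position (x axis) for the 40 splicing factor genes, 62 other splicing genes and the comparison set, with 95% Wilson intervals as lines. The intronic share is lowest for the 40 genes (34.9%) and highest for the comparison set (66.5%), whereas shares in exons and at other annotated ends are higher for the 40 genes.

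At the main transcript end a peak was found for 29 of the 40 genes, against 86.3% of the comparison set. The 11 genes without one were SRSF3, SRSF10, SRSF11, TRA2B, HNRNPA0, HNRNPA1, HNRNPD, HNRNPR, HNRNPU, SYNCRIP and SNRPD1. Peaks at other annotated ends or in the 3′ UTR were called in all 11, and the main end may still be used below the level that could be called. The median 3′ UTR of the main transcript was 3614 bp in these 11 genes and 1054 bp in the other 29. A 3′ UTR of at least 2000 bp was annotated for 9 of the 11 and for 9 of the 29.

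The strongest peak of a gene, by −log10 q, was at the main end in 15 of 40 genes, against 46.1% of the comparison set. It lay there in 4 of 12 SR genes, 0 of 2 TRA2 genes, 6 of 19 hnRNP genes, 3 of 3 U1 genes and 2 of 4 Sm genes. In 14 further genes it lay at another annotated end or in the main 3′ UTR. In 8 genes it lay in another exon, against 5.6% of the comparison set, and in 3 genes in an intron, against 16.5%. With peaks ranked by pileup instead, a choice made after seeing the data, 16 genes had the strongest peak at the main end.

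**Figure D3:**
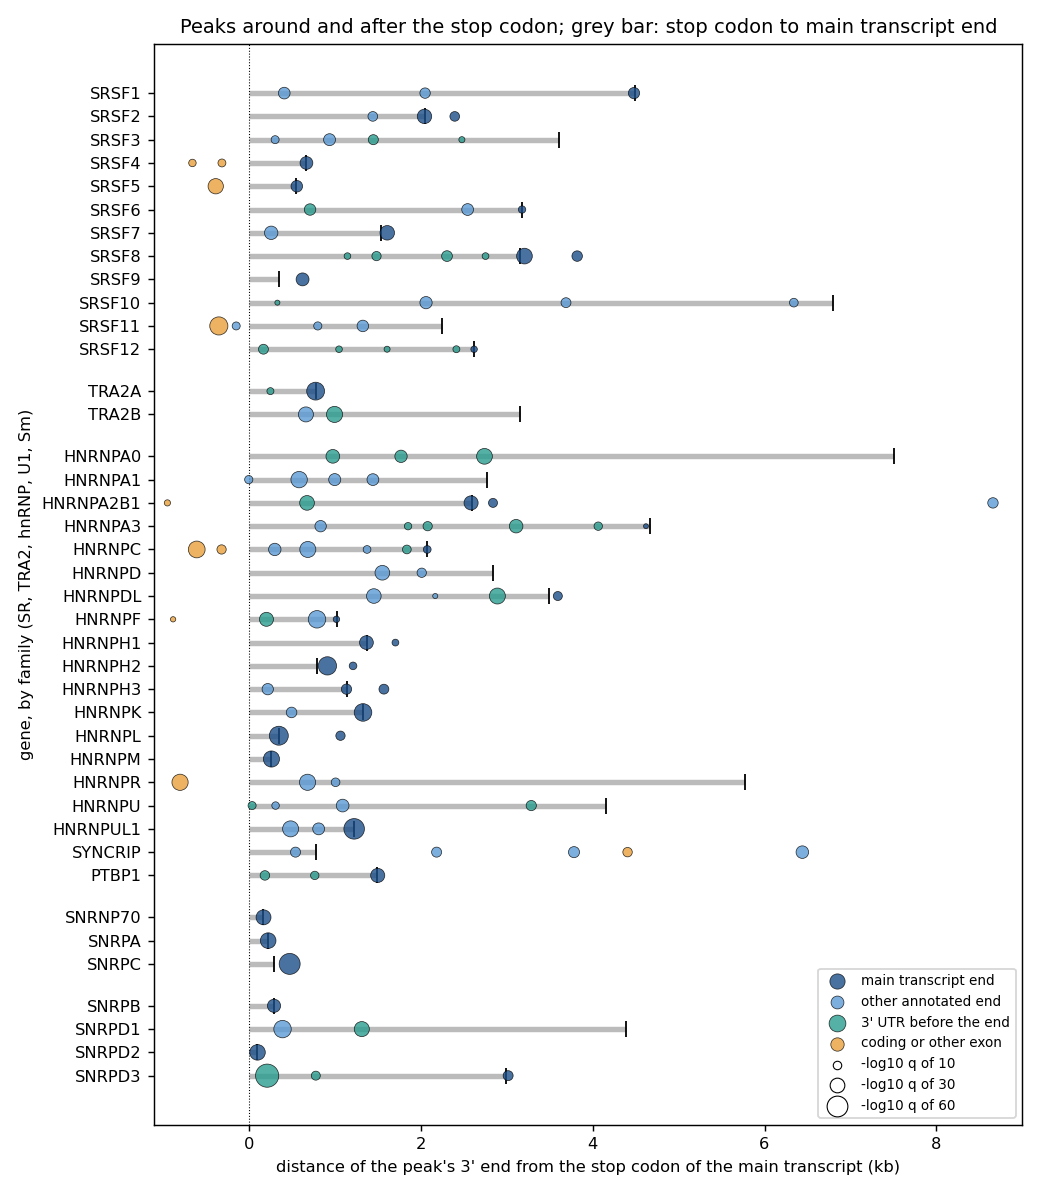
Position of each exonic or end peak from 1 kb before the stop codon onwards (x axis, kb from the stop codon of the main transcript) for the 40 genes (y axis), with circle area proportional to −log10 q and colour by position. Grey bars run from the stop codon to the main transcript end, and in genes with long bars such as HNRNPA0, HNRNPR, SNRPD1 and SNRPD3 the largest circles lie well before the end.

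In long 3′ UTRs the strongest peak lay mostly in the proximal part. Among the 18 splicing factor genes with a main 3′ UTR of at least 2000 bp (36.2% of the comparison set reach that length), the strongest peak after the stop codon lay before the midpoint between stop codon and main end in 13. The share was 42.4% for the 4867 genes of the comparison set with such a 3′ UTR and a peak after the stop codon. The median position was 28.3% of the way for the splicing factor genes and 70.2% for the comparison set. At least 3 peaks at ends or in the 3′ UTR were found in 21 of 40 genes, against 29.9% of the comparison set. Peak strength moves with this count: when the comparison set was divided into 4 equal groups by its highest end pileup, the top group (pileups of 33 to 121) held 32 of the 40 genes. In that group 38.4% of genes had at least 3 such peaks, and so did 18 of those 32. Its part in the result was not tested.

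Among the SR genes, the main end peak was strongest in SRSF8, an intronless gene on chromosome 11, with a −log10 q of 34.3 and a pileup of 43, and was followed by A-rich sequence. It was weakest in SRSF12, with 5.91 and a pileup of 13. SRSF8 also had 4 peaks inside its 3′ UTR, and SRSF12 had 4, of which the one 172 bp after the stop codon was its strongest (−log10 q 13.6). Thus in SRSF12 the short 3′ UTR had the higher value and in SRSF8 the full-length one.

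SRSF1, the founding SR protein, had 3 ends of similar strength in a 3′ UTR of 4490 bp. Their pileups were 39 at 414 bp after the stop codon, 34 at 2052 bp and 38 at the main end, so that none stood out. SRSF3, the smallest SR protein, had no peak at the main end. Its 4 peaks after the stop codon lay 308, 941, 1450 and 2480 bp downstream of it, and the second was highest with a pileup of 33. SRSF10, which represses splicing when dephosphorylated, had ends at 2063, 3691 and 6341 bp after the stop codon with pileups of 39, 33 and 28. The most distal of these lay 457 bp before the main end, outside the window used.

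SRSF2 (SC35) had its strongest peak 4 bp before the main end, with a pileup of 42. SRSF7, an SR protein with a zinc knuckle, had 40 reads of pileup at the main end, in a peak with no PAS motif and with A-rich sequence after it, and 38 at an annotated end 262 bp after the stop codon, with AATAAA and no A-rich sequence. SRSF6 had 34 at an annotated end 636 bp before the main end, 32 in the 3′ UTR and 20 at the main end. SRSF4 had its strongest peak 2 bp after the main end, with a pileup of 27. In SRSF5 the strongest peak (pileup 45, −log10 q 32.6) overlapped 81 bp of coding exon 7 and ended 383 bp before the stop codon, with AATAAA 18 bp upstream of its 3′ end and no A-rich sequence after it, while the main end had a pileup of 32. SRSF11 likewise had its strongest peak (pileup 56, −log10 q 45.8) over coding exon 11, 347 bp before the stop codon, but with A-rich sequence after it. SRSF9 had a main end peak of 38 reads. Its nominally strongest peak lay outside the main transcript, inside DYNLL1 on the opposite strand.

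Both TRA2 proteins bind GAA-rich enhancers. TRA2A had a pileup of 48 and a −log10 q of 44.5 at its main end, 3 bp before the annotated position. TRA2B had no peak at its main end and 2 strong peaks, with pileups of 44 and 48, at 666 and 999 bp after the stop codon of a 3160 bp 3′ UTR.

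Among the hnRNP genes, HNRNPUL1 had the strongest main end peak, with a −log10 q of 58.9 and a pileup of 62. TGFB1 overlaps this end on the opposite strand, and the peaks carry no strand. HNRNPL, whose protein binds CA repeats, followed with 50.03 and a pileup of 52. HNRNPH2 had 46.6 and a pileup of 44, and HNRNPK, a binder of C-rich RNA, had 43.1 and a pileup of 51. HNRNPA3 had the weakest main end peak, with 3.32 and a pileup of 19. In HNRNPA3 the signal after the stop codon was spread over 6 peaks, all inside NFE2L2 on the opposite strand. The highest pileup among them, 49, lay 3111 bp after the stop codon in a peak with no polyadenylation signal (PAS) motif.

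Among the hnRNP genes, 6 had no peak at the main end. HNRNPA0, an intronless gene with a 7501 bp 3′ UTR, had 3 peaks at 979, 1772 and 2743 bp after the stop codon. Their pileups were 44, 40 and 54, A-rich sequence followed the last of them, and no peak lay in the remaining 4758 bp. HNRNPA1, a UAGG-binding repressor, had its strongest peak 587 bp after the stop codon (pileup 55) at an annotated end. HNRNPD (AUF1), which binds AU-rich elements, had its strongest peak at 1555 bp (pileup 47), followed by A-rich sequence. In HNRNPA1 and HNRNPD these distances run along the genome and span an intron of the 3′ UTR. HNRNPR had pileups of 46 and 22 at 685 and 1011 bp, in a 3′ UTR of 5769 bp. HNRNPU, the nuclear scaffold attachment factor, had its highest end pileup, 54, at 1093 bp. SYNCRIP (hnRNP Q) differed from the others, since its main transcript has a 3′ UTR of 783 bp and 3 annotated ends lay 1403, 3001 and 5657 bp after the main end with pileups of 31, 35 and 37.

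In HNRNPA2B1 a 3′ UTR peak 679 bp after the stop codon (pileup 54) and the main end (pileup 49) were of similar height. HNRNPC, which binds uridine tracts, had pileups of 38 and 52 at annotated ends 304 and 688 bp after the stop codon and 23 at the main end. HNRNPDL had its highest pileup, 58, 600 bp before the main end, and 30 at the main end. HNRNPF had 47 at an annotated end 227 bp before the main end and 14 at the main end itself. A peak before the main end thus carried the higher value in these last 3 genes. In HNRNPDL, however, A-rich sequence followed that peak and not the main end peak. HNRNPH1, HNRNPM and PTBP1, the pyrimidine tract binder, had main end pileups of 38, 32 and 37. HNRNPH3 had 34 at an annotated end 222 bp after the stop codon and 30 at the main end. Its nominally strongest peak lay outside the main transcript, where PBLD overlaps on the opposite strand.

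The U1 genes were the plainest. Each had 1 peak at the main end, 0 at other ends and 0 elsewhere in the 3′ UTR, and each 3′ UTR was short, with 164 bp in SNRNP70, 225 bp in SNRPA and 290 bp in SNRPC. SNRNP70 and SNRPA, which bind stem-loops of U1 RNA, had pileups of 31 and 33 and a −log10 q of 31.1 and 34.0. SNRPC, which contacts the 5′ splice site duplex, had a pileup of 55 and a −log10 q of 61.3, 187 bp after the annotated end.

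Among the Sm genes, SNRPB and SNRPD2 followed the same layout, with main end pileups of 30 and 35 at 5 and 7 bp after the annotated position. SNRPD1 and SNRPD3 did not. SNRPD3 had the highest value of all 298 peaks, a −log10 q of 74.9 with a pileup of 78, at 215 bp after the stop codon of a 2997 bp 3′ UTR, and a pileup of 27 at the main end. SNRPD1 had pileups of 53, with no PAS motif, and 44, followed by A-rich sequence, at 394 and 1316 bp after the stop codon. It had no peak at the main end of its 4385 bp 3′ UTR. Hence the 4 Sm genes split evenly between a short and a long annotated 3′ UTR, and all 4 had their strongest peak within 400 bp after the stop codon.

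To show the signals at these ends, 30 bases around the motif are printed for ends that carry the statements above. They are given on the strand of the gene, from GRCh38, with the motif in capitals.
SNRPC main end (chr6:34773625-34774044): atAATAAAcagcttggttcatttttcacat
SNRPD3 3′ UTR peak: atgtttaagctaAATAAAtctggggggttt
TRA2A main end: gtagtctcaAATAAAagctaatttctttga
TRA2B 3′ UTR peak: gaactgtgtttaAATAAAcgcaaatgaaaa
HNRNPA0 3′ UTR peak: acggattagcaaAATAAAagtgaacctcct
HNRNPA1 end 587 bp after the stop codon: atcgtgacgctgAATAAAtgtctttttttt
HNRNPUL1 main end: tcattcATTAAAcaacttaactgagggatt
HNRNPH2 main end: aaaatTATAAAtgatatttagcatctttat
HNRNPK main end: taaaaggaAATATAgtaatcttatgtattt
The first 6 carry the canonical AATAAA, HNRNPUL1 its commonest variant ATTAAA, and HNRNPH2 and HNRNPK rarer variants. In HNRNPUL1 and HNRNPK no AATAAA was found in the 100 bp searched, so strong main ends of this family did not all have it there. The HNRNPH2 peak reaches 118 bp past the annotated end and the SNRPC peak 187 bp, so in both the 100 bp searched lie wholly after that end. Whether AATAAA precedes the annotated end of HNRNPH2 or SNRPC was not tested.

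A PAS motif was searched within 100 bp before the 3′ end of a peak on the gene's strand, with 12 hexamers that can overlap each other. They were AATAAA, its variants ATTAAA and ACTAAA and AGTAAA, the variants CATAAA and GATAAA and TATAAA that start with another base, and the rarer AAGAAA and AATGAA as well as AATACA and AATAGA and AATATA. Only 1 motif was kept per peak, with AATAAA and then ATTAAA preferred. A motif was present for 32 of 36 main end peaks (88.9%, 95% Wilson interval 74.7 to 95.6), against 87.8% in the comparison set. On the opposite strand of the same peaks the share was 63.9% (47.6 to 77.5). At other ends it was present for 35 of 42 peaks (83.3%), against 81.1% in the comparison set and 78.6% on the opposite strand. In the 3′ UTR it was present for 28 of 32 (87.5%), against 77.5% and 68.8%. The opposite strand thus also held a motif for most peaks at ends and in 3′ UTRs. The median distance from motif start to the 3′ end was 26 bp at main ends. In other exons the motif was present for 34 of 68 peaks (Wilson interval 38.4% to 61.6%), against 59.9% in the comparison set and 57.4% on the opposite strand. In introns it was present for 56 of 104 (53.8%, 44.3 to 63.1), against 54.7% in the comparison set and 35.6% on the opposite strand.

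Stretches of genomic A within a transcript can serve as a priming site for oligo(dT). A-rich sequence was scored where the 50 bp after the 3′ end held an unbroken run of 6 A or a stretch of 10 bases with 7 A. It followed 4 of 36 main end peaks (11.1%), 7 of 42 at other ends (16.7%) and 10 of 32 in the 3′ UTR (31.25%), against 13.4%, 29.7% and 33.9% in the comparison set. In other exons it followed 36 of 68 peaks (52.9%, 41.2 to 64.3), which lies below the 65.4% of the comparison set, and the opposite strand gave 33.8%. The intronic peaks gave 82 of 104 (78.8%, 70.0 to 85.6). The intronic share in the comparison set was 75.8%. The opposite strand of the same intronic peaks gave 20.2%. A motif without A-rich sequence was seen at 17 intronic peaks, in 13 genes.

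Poison exons were taken from the annotation as internal exons of nonsense-mediated decay transcripts that lie wholly inside an intron of the main transcript. By this definition 20 of the 40 genes had 27 poison exons, with lengths from 36 to 1474 bp, of which 18 were not a multiple of 3 bp. Exons that also code in another transcript were not left out, and whether each exon brings a stop codon was not tested. The shortest, 36 bp in HNRNPA2B1, is a multiple of 3 bp and may be a coding exon. The SR family held 16 of them in 9 genes, the hnRNP family 6 in 6 genes, TRA2 genes 2, U1 genes 2 and Sm genes 1. A peak lay within 500 bp of 10 of the 27, in 8 genes, against 18.8% of the 5780 poison exons of the comparison set. Counting only peaks whose −log10 q reached 10, the number was 4 of 27, against 5.78% of the comparison set. Both TRA2 exons had one, as did 5 SR and 3 hnRNP exons, but none of the U1 and Sm exons. A peak overlapped the exon itself in 6 cases.

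Among the 6 exons overlapped by a peak, the highest values were in the TRA2 genes. The TRA2A poison exon (chr7:23522132-23522432, 301 bp, intron 1) was covered over 255 bp by a peak with a pileup of 55, a fold enrichment of 16.0 and a −log10 q of 48.8. This was above the −log10 q of 44.5 at the main end of TRA2A, and was the strongest peak of the gene. The TRA2B poison exon (chr3:185931577-185931852, 276 bp, intron 1) was covered over 217 bp by a peak with a pileup of 28, a fold enrichment of 11.7 and a −log10 q of 22.97. The 3′ ends of both peaks lay inside the exon, so neither exon was covered to its downstream edge.

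These 2 exons were the richest in A of the 27, with 44.5% A in TRA2A and 43.8% in TRA2B, compared with 15.5% to 41.7% in the other 25. Both peaks were followed by A-rich sequence. The part of priming on genomic A in either peak was not tested. The 30 bases after the 3′ end of each peak are printed to show this, with the A-rich part in capitals, together with those of the strongest intronic peak near a poison exon of an hnRNP gene.
TRA2A: gagtgaagtAGAATTAAAAgaatctggaag
TRA2B: AAGAAATAAAaatgaagttaagataagaag
HNRNPL: aaccacaacAAAAAAAAAAtcAAAAAAAcc
The capitals mark 10 bases with at least 7 A in TRA2A and TRA2B and uninterrupted runs of A in HNRNPL.

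The HNRNPL peak (pileup 41, −log10 q 38.1, no PAS motif) lay in intron 6, 419 bp from the poison exon chr19:38841613-38841682. In SRSF7 a peak with a pileup of 20 overlapped 17 bp at the 3′ edge of the 449 bp poison exon in intron 3 (chr2:38748898-38749346). In SRSF10 a peak with a pileup of 16 overlapped the 363 bp exon in intron 2 and a second, with 21, lay 295 bp upstream of it. SRSF4 had peaks at 3 of its 4 poison exons, with pileups of 8, 12 and 13, of which the first overlapped the exon in intron 2 (chr1:29159864-29160091) and had ATTAAA 23 bp before its 3′ end with no A-rich sequence. In HNRNPA2B1 and HNRNPH1 the nearby peaks overlapped coding exons and had a −log10 q of 4.95 and 4.87. Of the 10 poison exons with a nearby peak, A-rich sequence followed the strongest nearby peak in 8.

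No peak lay within 500 bp of the poison exons of SRSF2, SRSF3, SRSF6, SRSF9, SRSF11, SRSF12, HNRNPD, HNRNPDL, PTBP1, SNRNP70, SNRPA and SNRPB. SRSF11 has 3 such exons and SRSF3 has 2, and the nearest peaks were 1565 and 1516 bp away. A peak list cannot show that an exon is not included, since inclusion followed by use of the normal end gives no peak near the exon.

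**Figure D4:**
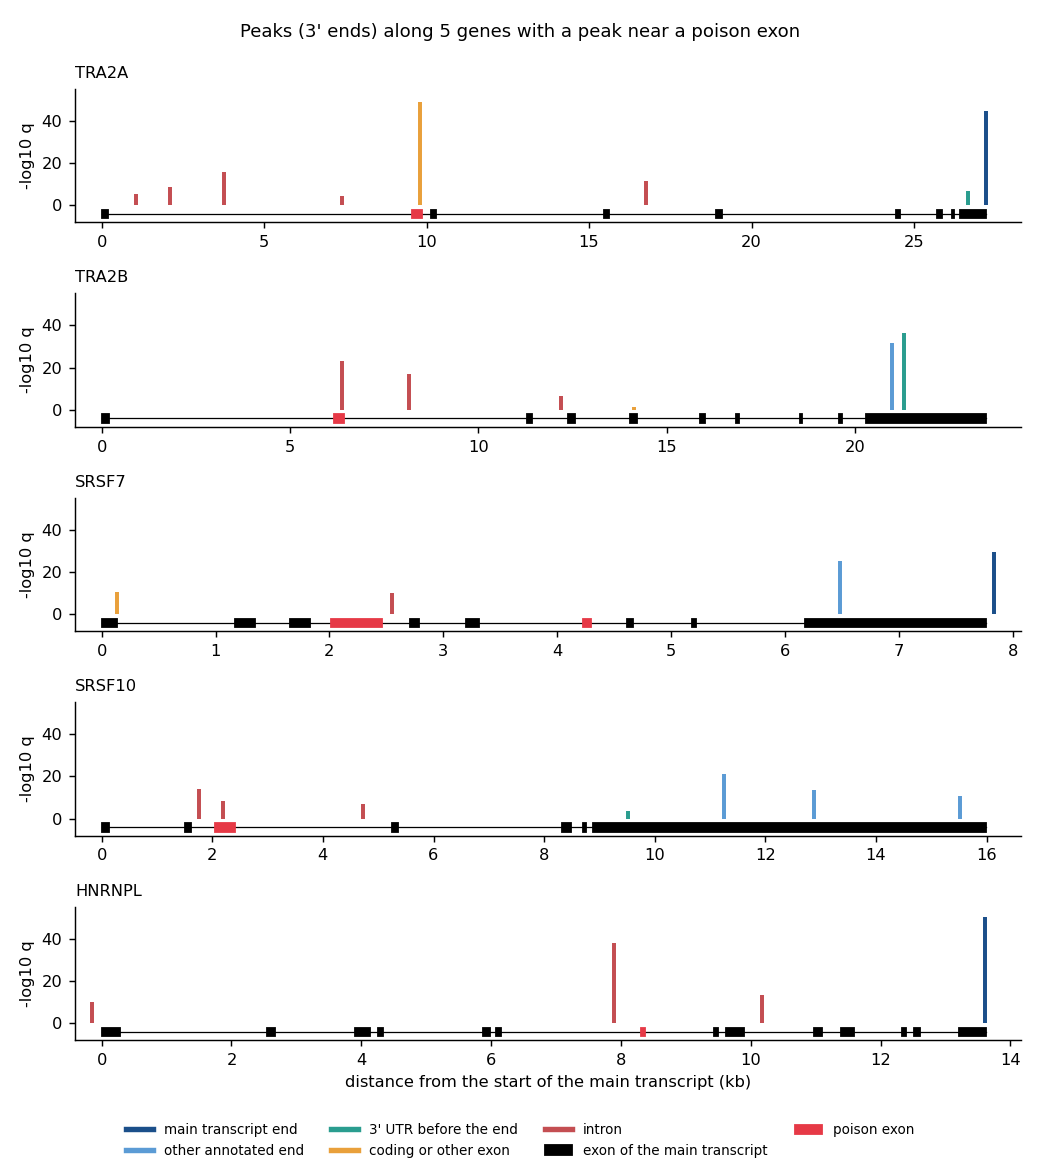
Peaks of TRA2A, TRA2B, SRSF7, SRSF10 and HNRNPL at the position of their 3′ end along the main transcript (x axis, kb from its start), with −log10 q as height (y axis) and colour by position. Exons are black and poison exons red, and in TRA2A the peak at the poison exon (48.8) is as tall as the one at the main end (44.5).

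An intronic peak was present in 29 of the 40 genes, against 76.4% of the comparison set, with 2 as the median number per gene against 3. Longer genes held more. When genes were placed in 20 bins of length, 19 of the 38 splicing factor genes with an intron exceeded the median intronic peak count of their bin and 8 fell short of it, against 38.4% and 36.6% of the comparison set. Excess counts were seen in 5 of 11 SR, 2 of 2 TRA2, 8 of 18 hnRNP, 2 of 3 U1 and 2 of 4 Sm genes. The count was 9 of 38, against 30.5% of the comparison set, when a PAS motif and no A-rich sequence were required.

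HNRNPC had the most intronic peaks, 11, against a bin median of 6, and the highest −log10 q among them was 17.5. SRSF4 had 9 against 3, and 6 of the 7 in intron 1 matched other places in the genome. SRSF9 had 8 against 3, but all 8 lay outside its main transcript and inside DYNLL1. SRSF11 had 7 against 5, but several of them lay before the start of its main transcript. HNRNPF and HNRNPUL1 had 6 each against 2 and 5, and TRA2A had 5 against 3. In U1 genes the counts were 3 in SNRNP70, 3 in SNRPA and 1 in SNRPC. SNRPD1 had 3, SNRPB and SNRPD3 had 2 each, and all 7 intronic peaks of Sm genes were followed by A-rich sequence. SRSF5 had none although its gene record spans 45.1 kb, of which the main transcript covers 4.86 kb.

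**Figure D5:**
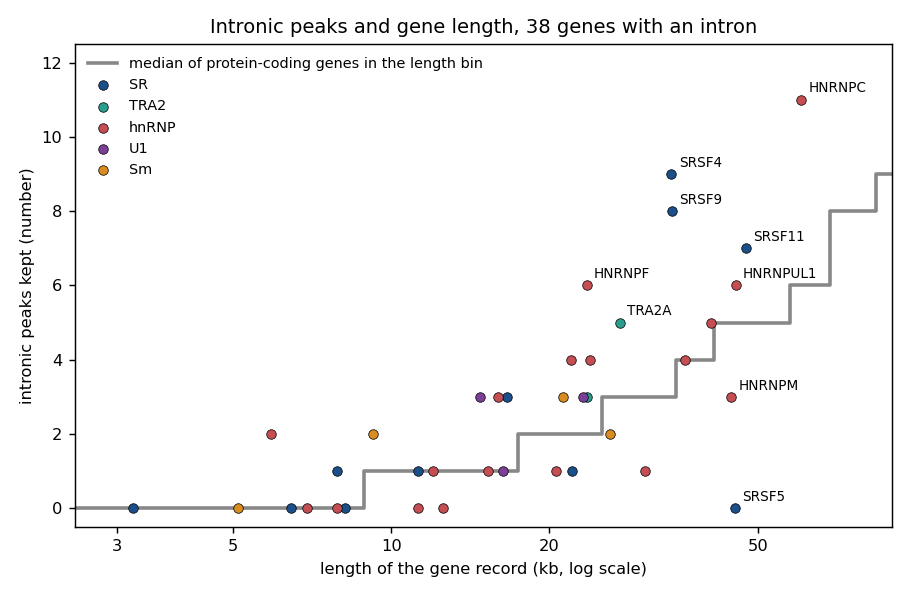
Number of intronic peaks kept (y axis) against the length of the gene record (x axis, kb, log scale) for the 38 splicing factor genes with an intron, coloured by family, with the median of the comparison set in each length bin as a grey line. HNRNPC (11), SRSF4 (9) and SRSF9 (8) lie above the line, and SRSF5 (0) and HNRNPM (3) below it.

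Of these 17 intronic peaks that had a motif but lacked A-rich sequence, 8 lay in an intron of the main transcript and in no other annotated gene. They were in SRSF4, TRA2B, HNRNPC, HNRNPR (2 peaks), HNRNPUL1, PTBP1 and SNRNP70. The strongest was in PTBP1, intron 10 (chr19:807558-807674, pileup 28, −log10 q 17.3, fold 8.41). HNRNPR had one in intron 5 with a pileup of 17 and a −log10 q of 10.0. The others had pileups of 8 to 12, and the SNRNP70 peak matched over 1000 other places. The bases before the 3′ end of the PTBP1 peak, and those of the SRSF4 peak over its poison exon, are printed with the motif in capitals.
PTBP1 intron 10: acaaaacaaaaacataaacaAATAAAaaac
SRSF4 intron 2: tgttttaATTAAAagaatcctttgaggcta
In PTBP1 the hexamer lies inside a stretch rich in A, upstream of the 3′ end.

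Peaks in other exons were found in 15 of 19 hnRNP genes, against 40.1% of the comparison set. They were found in 5 of 12 SR genes, 2 of 2 TRA2 genes, 1 of 3 U1 genes and 2 of 4 Sm genes. The hnRNP genes held 51 of the 68, and 45 of these 51 overlapped a coding exon of the main transcript. In HNRNPA2B1 and SYNCRIP, 3 of the others lay in exons of longer transcripts after the main end. Peak strength moves with such peaks: in the top group by end pileup, 48.0% of genes had one, as did 14 of the 18 hnRNP genes in that group. Its part in the hnRNP count was not tested. Of the 45, 26 were followed by A-rich sequence, compared with 65.4% of peaks in other exons of the comparison set, and 9 had a match elsewhere in the genome.

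In 5 hnRNP genes such a peak was the strongest of the gene. It lay in coding exon 2 of HNRNPM (pileup 35, fold 21.2, −log10 q 42.8), which stands against 36.3 at the main end of the same gene 33551 bp further on. It lay in exon 7 of HNRNPC (pileup 54), exon 4 of HNRNPA3 (pileup 53), exon 10 of HNRNPR (pileup 46) and exon 9 of SYNCRIP (pileup 38). HNRNPM, HNRNPR and HNRNPA3 had A-rich sequence after the peak, whereas HNRNPC and SYNCRIP had none. The HNRNPC and HNRNPA3 sequences each matched 12 other places. HNRNPR had a second coding exon peak, in exon 9, with a pileup of 43 and AGTAAA 12 bp before its 3′ end and no A-rich sequence. Of the 8 genes in all whose strongest peak was exonic, 5 had A-rich sequence after it.

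Many splicing factor genes have processed copies, and reads were allowed to map to up to 20 places, so peaks may hold reads of a copy or lose reads to it. The last 75 bases of 83 of the 298 peaks matched another place in the genome with at least 90% identity, 30 of them more than 20 places. Pseudogenes named after a member number 154, for 22 of the genes, of which 10 held a peak. HNRNPA1 has 74, and 2 of them held a peak, while the sequence of its strongest end peak matched 17 other places. HNRNPA3 has 16, and HNRNPA3P6 held a peak with a pileup of 22 and a −log10 q of 27.8. At least 1 peak at an end or in the 3′ UTR matched elsewhere in 21 of the 40 genes, among them 5 of 6 in HNRNPA3, 3 of 4 in HNRNPA1 and SRSF10, 3 of 5 in SRSF12 and 2 of 4 in SRSF3. In SRSF9, HNRNPK, SNRPB and SNRPD2 every main end peak did, and the pseudogene SNRPD2P1 itself held a peak. The values of these genes are therefore uncertain as to their source. Without all peaks that match elsewhere, 25 of the 40 genes had a main end peak and 10 had their strongest peak there.

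Peaks carry no strand, and 83 of the 298 (27.9%) also lay in another annotated gene. This concerns 13 of the 16 peaks after the gene, 24 of the 104 intronic peaks and peaks at ends or in the 3′ UTR of 12 genes. On the opposite strand these met NFE2L3 in HNRNPA2B1, NFE2L2 in HNRNPA3, RUFY2 in HNRNPH3, TGFB1 in HNRNPUL1, GATC in SRSF9, and METTL23 and an unnamed gene in SRSF2. On the same strand those of SRSF1, SRSF6, HNRNPA1, HNRNPL, SYNCRIP and SNRPD3, with the highest of all 298 peaks, met unnamed genes. In HNRNPU the 4 intronic peaks, one of which was nominally its strongest with a pileup of 57, lay in the part of the gene record that reaches beyond the main transcript into COX20 on the opposite strand. Without peaks in another gene, 20 of 40 genes had a main end peak and 12 had their strongest peak there. The 9 genes that lost it were SRSF1, SRSF2, SRSF6, SRSF9, HNRNPA3, HNRNPH3, HNRNPL, HNRNPUL1 and SNRPD3.

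Sequence composition differed between the families. The median GC content of the main transcript span was 41.5% for SR, 39.8% for TRA2, 40.4% for hnRNP, 50.4% for U1 and 46.2% for Sm genes, and 45.2% in the comparison set. The log2 ratio of U1-binding motifs (GGTGAG and GGTAAG and GTGAGT, also where they overlap) to AATAAA, each count plus 1, had a median of −0.14 for SR, −0.76 for TRA2, −0.11 for hnRNP, 0.76 for U1 and 0.32 for Sm genes. The median of the comparison set was 0.11. At the median, SR, TRA2 and hnRNP genes thus had more AATAAA than U1 motifs and genes of U1 and Sm proteins fewer, with 2 to 19 genes in a family and wide overlap between them: single genes ranged from −1.58 to 1.00 in the SR family and from −0.19 to 1.95 in the U1 family.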

How the data were processed

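Poly(A) 3′-sequencing (QuantSeq 3′ REV) was done on 8 libraries of Kelly and Kelly E9R cells. The authors trimmed reads with BBDuk, mapped them with STAR 2.5.1b to GRCh38 plus ERCC spike-in sequences, merged all libraries and called peaks with MACS2 2.1.1, extending reads to 100 bp. The deposited list holds, per peak, start, end, a score (10 times the −log10 q), the fold enrichment as a ratio to local background, and significance as −log10 p along with −log10 q. No column belongs to a single sample and no peak carries a strand. The planned edgeR comparison of THZ531 with DMSO needed counts per library and was not run. Handling of duplicate reads is not given in the sources used here.

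Pileup and background were recovered from the fold and the Poisson p of MACS2 (100% of peaks within 0.001). Peaks were classified against GENCODE release 44 (the study used an older release) in this order: window from 200 bp before to 600 bp after the main transcript end, the same window at ends of other basic transcripts, main 3′ UTR (stop codon included), other exons, gene span, and up to 4000 bp after it, with an overlap of at least 1 bp. The 3′ end of a peak was read on the gene's strand. Distances of peaks from the stop codon and the main end were taken along the genome, so they include any intron of the 3′ UTR. Peaks followed by 25 A with at most 3 mismatches within 50 bp and without a PAS motif were removed. Matches elsewhere used blastn 2.17.0 (at least 68 aligned bases, 90% identity) on chromosomes 1 to 22, X and Y. Shares carry Wilson intervals at 95%. The scripts were tested on simulated data. Python 3.11.15 with pandas 2.3.3 and scipy 1.17.1 was used.

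Members and lists were chosen with earlier results of these data known. All 40 genes are accounted for, and values are given by rule for the strongest and weakest main end and the 3 genes with most intronic peaks per family, genes without a main end peak, genes whose strongest peak lies elsewhere and genes with a peak near a poison exon. The values of the others among the 40, and the sequences printed for 3′ UTR peaks and after peaks near poison exons, were chosen after they were seen. The separate class for the 3′ UTR, the division by end pileup and the pseudogene counts were added after seeing the data. Alternatives were stricter q, other overlaps, transcript sets and motif definitions. A single one of the listed cell type markers is not reported here.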

Additional observations from a re-analysis of the deposited data

How the results depend on the processing

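No paired analysis was possible because the list was called on the pooled reads of all libraries and holds no value per library. Of 93 alternative values for 10 results, 78 stayed within 1.5 times the main count or inside the interval of the main share and 15 did not. At a −log10 q of at least 10 there were 153 peaks instead of 298, the intronic share was 19.6%, 63.3% of intronic peaks had a PAS motif, and 4 of 27 poison exons had a nearby peak. With all GENCODE transcripts the intronic share was 27.9%, as more peaks met an exon or end. Counting peaks with a PAS motif alone gave an intronic share of 28.7%, and excluding A-rich sequence as well gave 14.0%, with 13 genes holding an intronic peak and 9 above the median of their length bin. Peaks at main ends had a motif in 96.7% of cases without the extension after the gene, and in 66.7% with AATAAA and ATTAAA alone, which gave 23.1% in introns. Only 0.962% of intronic peaks kept were followed by a 25-A stretch, as its removal defines. A peak overlapped 6 poison exons, and 17 of 44 internal exons of any transcript class had one nearby. Leaving out peaks that match elsewhere, ranking by pileup and using the main transcript's span were chosen after seeing the data. With the last, the intronic share was 30.9% and 24 genes had an intronic peak. Leaving out a replicate was not possible. Depth limits every absence: a site without a peak may be used below the level that MACS2 could call, more so near strong peaks, where the local background is high.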
